A study of Mus musculus with 16 samples.

Results

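Gene expression in non-tumour colon was compared between ApcMin/+ mice that received dextran sulphate sodium (DSS) and then 5-aminosalicylic acid (5-ASA) and ApcMin/+ mice that had only water. The groups were taken from the sample titles: 6 5-ASA mice and 4 Sham mice, 10 of the 16 mice of the series, with 1 array per mouse. All 16 mice, Sham included, are heterozygous for the Min mutation of the tumour suppressor gene Apc. The 5-ASA mice drank 1.5% (weight per volume) DSS for 3 days. The labels disagree on the drug: some say it was given into the colorectum over 28 days, others that it was drunk with the water in the 25 days of recovery. Sham mice drank water for the same 28 days, and the colon was taken on day 28. The 6 Control mice had the same DSS course followed by saline or, in other labels, plain water, and their values are given beside the others. Age, sex and background strain are not given in the sources used here. No group had 5-ASA without DSS, so a difference between 5-ASA and Sham holds the DSS course and the drug together.

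DSS damages the colonic epithelium and brings on colitis, after which crypts are rebuilt by dividing cells. 5-ASA is an anti-inflammatory drug that acts in the gut lumen and mucosa and is used in ulcerative colitis. In ApcMin/+ mice, DSS colitis is a common way to raise the number of colon tumours, and the tissue studied here is the mucosa and wall between them.

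Levels are log2 signal relative to the 75th percentile of each array, and a difference is the 5-ASA mean minus the Sham mean on that scale unless another is named. Both slides carried arrays of 2 Sham and 3 5-ASA mice. On both slides every Sham array was in the first row and every 5-ASA array in the second, so that row and group cannot be told apart. Signal was well above background at 59.8% to 64.4% of spots on Sham arrays and 53% to 57.7% on 5-ASA arrays. It was so at 56.81% and 56.75% on Control 3 and 6, in the second row. On Control 1, 2, 4 and 5, in the first row, the share was 64.44% to 65.2%. The row could be entered as a covariate only through the Control mice, 4 of which lay in the first row and 2 in the second, and values from that fit are called row-adjusted. Diarrhea scores on day 28 were 0, 0.5, 0.5 and 0.5 in Sham 1 to 4. In 5-ASA 1 to 6 they were 0, 0.5, 0.5, 0.5, 0 and 0.5. The 2 Control mice in the second row, Control 3 and 6, had scores of 1.5 and 1. Control 1, 2, 4 and 5 had scores of 0.5, 0.5, 1 and 0.5. A row-adjusted value thus also takes up any other difference between these 2 mice and the rest of Control. All 5 markers each of colonocytes, goblet cells, smooth muscle, and enteric neurons and glia were well above background on all 16 arrays, so the samples hold epithelium and muscle wall. A group's values cannot tell fewer cells of a type from less RNA per cell. Sham 1 stood apart from Sham 2 to 4 in the scores of B cell, T cell and MHC class II genes, as given with those genes.

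No gene passed the test: limma called 0 of 18970 genes (0%) at a Benjamini-Hochberg adjusted p of 0.05, and the smallest adjusted p was 0.0672, for Mcm8 and Osgin1. At an unadjusted p under 0.05 there were 2182 genes (11.5%), 1307 of them higher (6.89%) and 875 lower in 5-ASA. All 6 5-ASA mice lay above all 4 Sham mice in 187 genes (0.986%) and below them in 109 (0.575%). The median difference over all genes was 0.004, with a median SE of 0.136, and 124 genes differed by more than 2-fold upward and 110 downward. In the same fit, limma called 0 genes for Control minus Sham (1932 at an unadjusted p under 0.05, 10.2%) and 0 for 5-ASA minus Control (703, 3.71%). The 3 comparisons share mice, so their values stand side by side below and are not counted against each other. With slide as a block, or with arrays weighted by their quality, limma called 2 genes, Mcm8 and Osgin1. Without 5-ASA 4 it called 13, without Sham 1 it called Osgin1 alone, and without 5-ASA 3 Mcm8 alone.

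**Figure D1:**
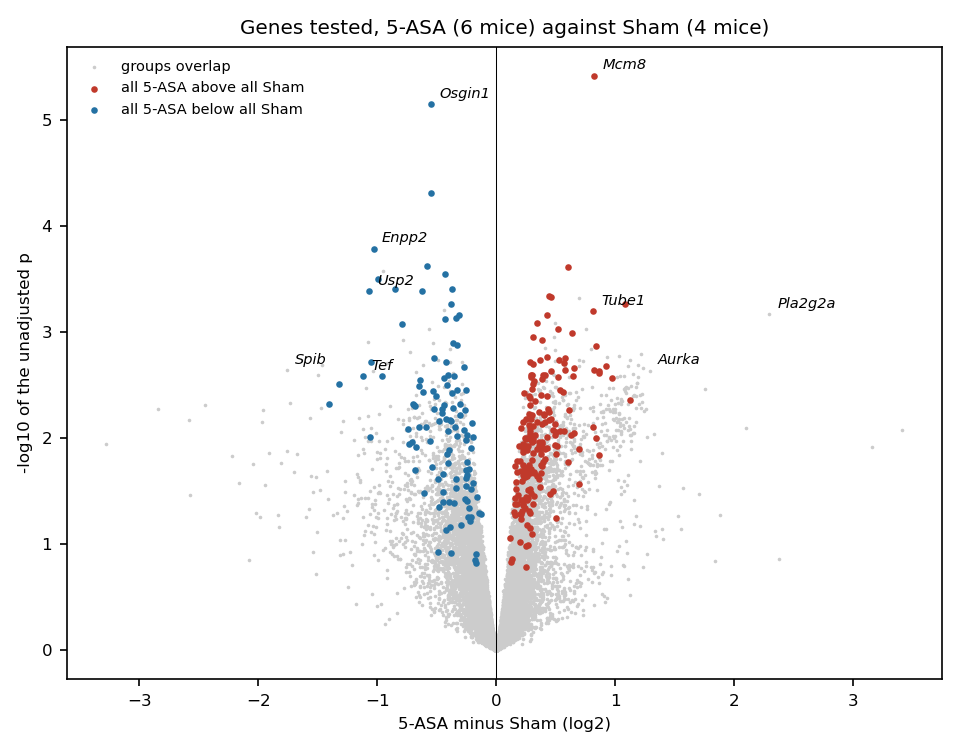
Difference between 5-ASA (6 mice) and Sham (4 mice) on the log2 scale against the -log10 of the unadjusted p in limma, 1 point for each of 18970 genes. Red points (187) have every 5-ASA mouse above every Sham mouse, blue points (109) every 5-ASA mouse below, and Mcm8 and Osgin1 lie highest.

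The gene with the smallest p was Mcm8, a helicase of the MCM family that acts in homologous recombination. Its level in Sham 1 to 4 was -2.93, -2.84, -3.08 and -3.20, and in 5-ASA the lowest was -2.54, the median -2.22 and the highest -1.84. The groups did not overlap, and the lowest 5-ASA mouse was 0.31 above the highest Sham mouse. The difference was 0.83 (SE 0.12, limma adjusted p = 0.0672, a ratio of 1.77). Mcm8 differed by 0.76 on slide 1 and 0.89 on slide 2, and the row-adjusted difference was 0.83. A further kept probe of the gene gave 0.95. For Control minus Sham it was 0.51 (SE 0.12) and for 5-ASA minus Control 0.31 (SE 0.11). The probe lies on chromosome 2 from 132669680 to 132669739 (mm9). Mcm8 is dim, with means of -3.015 in Sham and -2.188 in 5-ASA. That places it in the fifth of genes tested with the lowest level (-4.39 to -2.05).

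Osgin1, an oxidative stress-induced growth inhibitor and a target of the transcription factor NRF2, was on the lower side. Its level was 1.42, 1.56, 1.79 and 1.76 in Sham 1 to 4, and 0.97, 1.09 and 1.17 as the lowest, median and highest of 5-ASA. Again no mouse of one group reached the other. The difference was -0.55 (SE 0.08, limma adjusted p = 0.0672), with -0.43 and -0.67 on the slides and -0.57 row-adjusted. Control minus Sham was -0.43 (SE 0.08), and 5-ASA minus Control was -0.12 (SE 0.07). Of the 27 NRF2 targets tested, Osgin1 included, 21 were higher and 6 lower, with a list median of 0.13. At an unadjusted p under 0.05, 3 were higher and 2 lower (18.5%, against 11.5% of all genes). The other lower one at that p was Nfe2l2, the gene of NRF2 itself (-0.19, SE 0.08). On the higher side Gsr, glutathione reductase, differed by 0.51 (SE 0.18) without overlap, and the quinone reductase Nqo1 by 0.42 (SE 0.17).

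Behind these 2 genes, those with the smallest p, no overlap and an official symbol had an adjusted p of 0.307 to 0.319 in limma. The 9 others on the higher side differed by 0.31 to 0.82. They were Pkn3, a kinase of the protein kinase N family (0.45, SE 0.10), the linker histone H1f0 (0.46, SE 0.10), Tube1, the epsilon tubulin of centrioles (0.82, SE 0.19), and Banf1, which ties DNA to the nuclear envelope (0.52, SE 0.13). Ergic1 (0.43, SE 0.10) and Stt3a (0.43, SE 0.11) belong to the secretory pathway, the latter as the catalytic subunit of an oligosaccharyltransferase. Its value rests on 5 5-ASA mice, since 1 outlying spot was left out. The homeobox gene Irx4 (0.64, SE 0.16), the methionine salvage enzyme Apip (0.31, SE 0.08) and the tRNA methyltransferase Trmt44 (0.39, SE 0.10) complete the set. For Trmt44 the Control mice were as high, at 0.44 over Sham, and for Irx4 they were at 0.18. Irx4 also differed between slides, with 0.27 on slide 1 and 1.00 on slide 2. Irx4 (mean -4.35 in Sham, -3.715 in 5-ASA) and Trmt44 (-2.94 and -2.551) are, like Mcm8, in the fifth of lowest level.

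On the lower side, the 9 others differed by -1.07 to -0.31. Enpp2 encodes autotaxin, the enzyme that makes lysophosphatidic acid. It was at 1.68, 2.54, 1.84 and 2.40 in Sham 1 to 4 against 0.68, 1.09 and 1.48 (lowest, median, highest) in 5-ASA, a difference of -1.03 (SE 0.21). Every 5-ASA mouse was thus lower, while Control lay between with -0.58 against Sham. Tnfaip3, which encodes the NF-kB inhibitor A20, differed by -0.62 (SE 0.14), the calcium-regulated transcription factor Nfatc1 by -0.55 (SE 0.10) and the growth arrest gene Gadd45a by -0.58 (SE 0.12). For Nfatc1 the row-adjusted value was -0.29, and a further kept probe gave -0.23. For Tnfaip3 the slides gave -0.32 and -0.93. Usp2, described with the clock genes, was at -1.07 (SE 0.24) and the forkhead factor Foxo6 at -0.79 (SE 0.19). Gramd1b (-0.38), Midn (-0.31) and Gcnt2 (-0.34), a branching enzyme of glycan chains, had smaller differences. In Foxo6, Control minus Sham was -0.13 and 5-ASA minus Control -0.66.

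**Figure D2:**
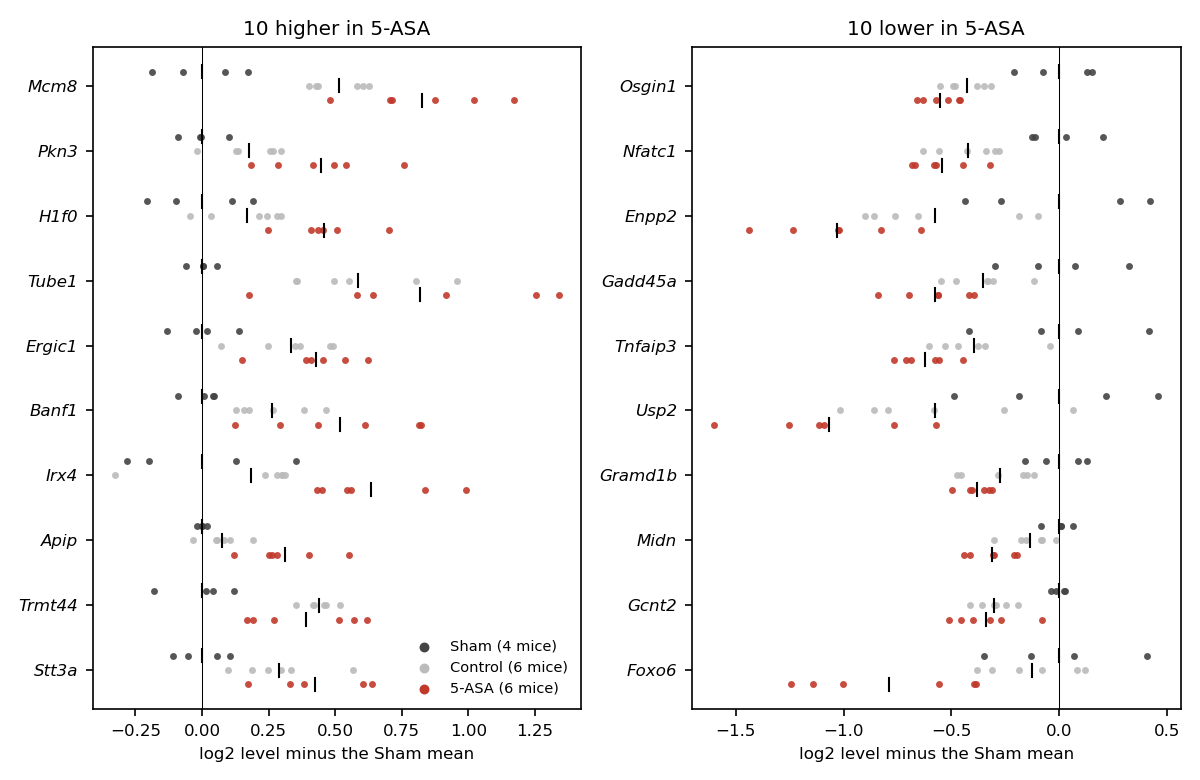
Levels of the 20 genes with the smallest p among those without overlap and with an official symbol, 10 in each direction, in log2 minus the Sham mean of the gene. Each point is a mouse (dark Sham, light Control, red 5-ASA) and each tick a group mean; in no gene do red and dark points overlap.

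Gene lists were described by how many members were higher or lower and by their median, beside 9680 higher of 18970 and a median of 0.004 over all genes. Of 1169 listed genes, 1157 were on the array and 964 passed the filter and were tested. None of the members was called, as over all genes (0%). Of the 49 lists, 13 had a median more than 0.2 from that of all genes, 3 of them higher and 10 lower in 5-ASA.

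**Figure D3:**
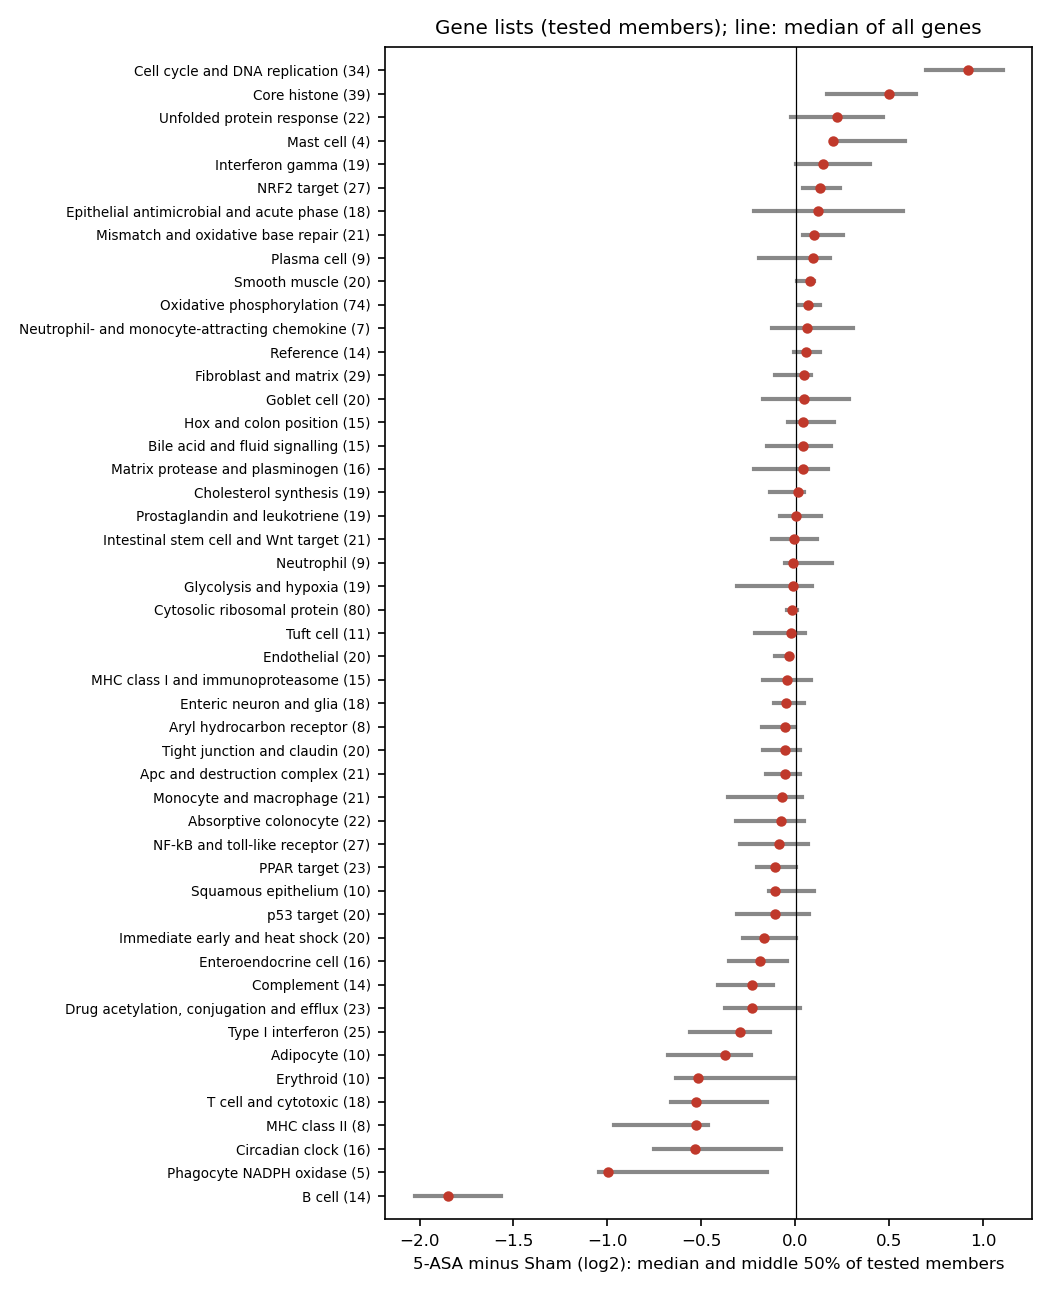
Median difference between 5-ASA and Sham (points) and the middle 50% of members (bars) for 49 gene lists, with the number of tested members in brackets and a line at the median of all genes. Cell cycle (0.92) and histone genes (0.50) lie at the upper end, and B cell genes (-1.85) at the lower.

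Genes of DNA replication and mitosis were higher in 5-ASA. All 34 tested members were above Sham on average, with a median of 0.92, and 31 had an unadjusted p under 0.05, against 11.5% of all genes. The members are read in the same mice and are not independent. Aurka, a mitotic kinase, was at 1.04, 1.25, 0.28 and 0.93 in Sham 1 to 4 and at 0.89, 2.20 and 3.01 (lowest, median, highest) in 5-ASA, a difference of 1.29 (SE 0.35, limma adjusted p = 0.319). The proliferation marker Mki67 differed by 0.94 (SE 0.29), the topoisomerase Top2a by 1.25 (SE 0.39) and the cyclin Ccnb1 by 1.05 (SE 0.32). Gins2, a subunit of the replicative helicase complex, was the only member without overlap (2.94%, against 1.56% of all genes). It differed by 0.87 (SE 0.24), at -1.06 to -0.85 in Sham and -0.69 to 0.46 in 5-ASA. The licensing helicase genes Mcm2 to Mcm7 differed by 0.54 to 0.73, and the thymidylate synthase gene Tyms (0.26, SE 0.16) by least.

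By mouse, the cell cycle score, which averages the members after centring each on its mean over the 16 arrays, was -0.61, -0.39, -0.93 and -0.47 in Sham 1 to 4. In 5-ASA 1 to 6 it was 1.04, 0.83, -0.10, -0.67, -0.00 and 0.60. The 5-ASA mice thus ranged widely, and 5-ASA 4 lay among the Sham mice. The list median was 1.08 on slide 1, 0.72 on slide 2 and 0.79 row-adjusted. It was 0.72 for Control minus Sham and 0.21 for 5-ASA minus Control. In the stretch of 250 bases before the start of transcription, CCAAT on either strand occurred in 24 of the 29 members with a promoter in the RefSeq table (82.8%), against 34.5% of 27025 promoters of that length and 35.9% of the 10885 of tested genes. The cell cycle element TTTGAA occurred in 7 of 29 (24.1%), against 16.3% of all and 11% of tested genes' promoters. These shares follow from which genes the list holds and use no difference between 5-ASA and Sham.

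Histone genes, most of which are expressed when DNA is copied, were higher as well. Of 39 tested members 36 were above Sham, with a median of 0.50. An unadjusted p under 0.05 was found in 24 (61.5%, against 11.5% of all genes). The list median was 0.223 for Control minus Sham and 0.321 for 5-ASA minus Control. H2ac22, a histone H2A gene, differed by 0.72 (SE 0.21), H2bc18 by 1.00 (SE 0.31) and the linker histone H1f5 by 1.02 (SE 0.34). H1f0, whose expression does not depend on replication, was the only member without overlap (2.56%, against 1.56% of all genes). Histone genes of 1 class are nearly alike in sequence, so a probe may read several of them. The histone scores of 5-ASA 3, 4 and 5 were -0.11, -0.10 and 0.01, near the highest Sham score of -0.10, and those of 5-ASA 1 and 2 were 0.66 and 0.67. In the list of mismatch and oxidative base repair, 18 of 21 tested genes were higher, with a median of 0.10. At an unadjusted p under 0.05 there were 6 (28.6%, against 11.5% of all genes). Of these, 3 named for their size after the values were seen are the exonuclease gene Exo1 (1.07, SE 0.34), the flap endonuclease gene Fen1 (0.87, SE 0.33) and the ligase gene Lig1 (0.55, SE 0.22).

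**Figure D4:**
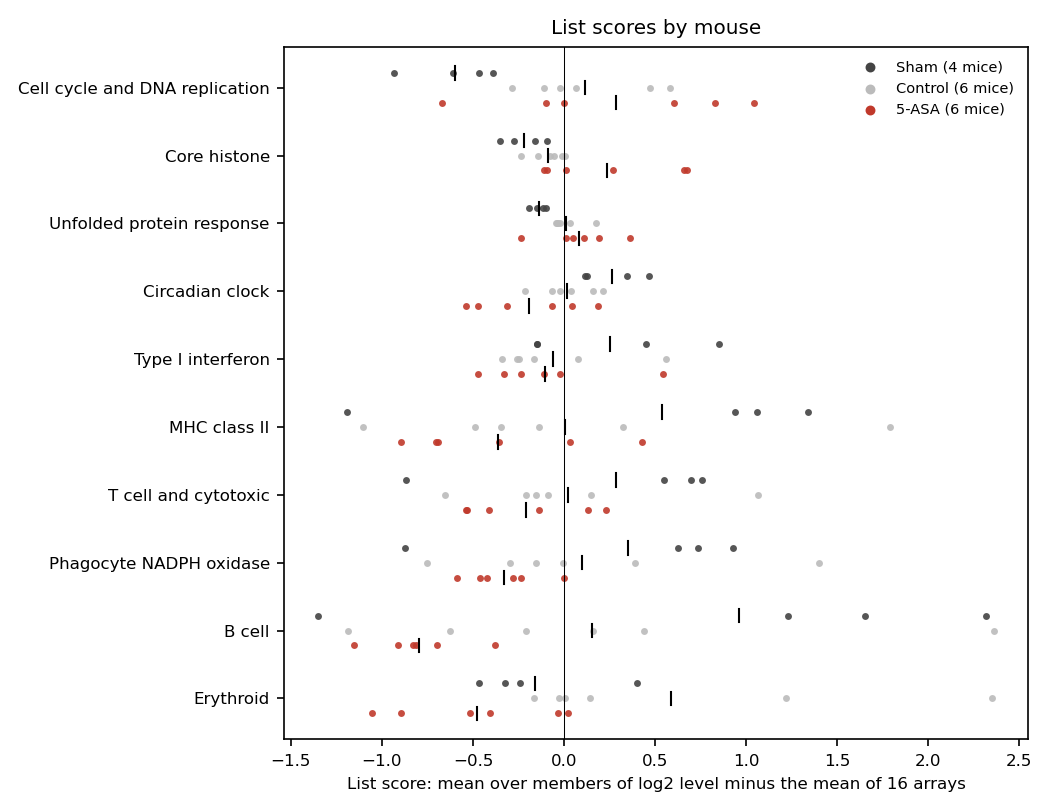
List scores by mouse, the mean over members of the log2 level minus its mean over 16 arrays, for 10 lists; dark points are Sham, light points Control, red points 5-ASA, and ticks are group means. In the cell cycle list 5-ASA 4 (-0.67) lies among Sham mice, and in the B cell list Sham 1 (-1.35) lies among 5-ASA mice.

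Genes of the unfolded protein response were mostly higher in 5-ASA, with members on both sides. The unfolded protein response raises chaperones and folding enzymes through the factors ATF6 and XBP1, which act at the endoplasmic reticulum stress element, and a separate arm through ATF4 raises Ddit3 and Trib3. Of 22 tested members 16 were higher and 6 lower, with a median of 0.22. At an unadjusted p under 0.05, 10 were higher and 1 lower (50%, against 11.5% of all genes). Pdia4, a disulphide isomerase, was at 0.72, 1.01, 0.95 and 0.84 in Sham 1 to 4 and 1.13, 1.42 and 2.11 (lowest, median, highest) in 5-ASA. It differed by 0.64 (SE 0.18, limma adjusted p = 0.319) and was the only member without overlap (4.55%, against 1.56% of all genes). Sdf2l1 differed by 0.77 (SE 0.25), Creld2 by 0.69 (SE 0.24) and Manf by 0.56 (SE 0.20), which all encode stress-induced proteins of the endoplasmic reticulum. Hspa5, which encodes the chaperone BiP, was at 5.4 to 5.69 in Sham and at 5.32, 6.05 and 6.80 (lowest, median, highest) in 5-ASA, a difference of 0.48 (SE 0.20). The lowest 5-ASA mouse, 5-ASA 4, was below all Sham mice. Ddit3, a factor of the ATF4 arm, was at -0.51 (SE 0.16), Trib3 was at -0.19 (SE 0.15) and Atf4 at -0.05 (SE 0.09), while Asns, the asparagine synthetase gene that ATF4 also drives, was at 0.59 (SE 0.20). The chaperone gene Dnajb9 was at -0.08 (SE 0.12) and Herpud1, of the degradation machinery, at -0.24 (SE 0.13). The list median was 0.31 and 0.15 on the slides, 0.19 row-adjusted and 0.14 without 5-ASA 1. It was 0.141 for Control minus Sham and 0.053 for 5-ASA minus Control.

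The stress element, searched as CCAAT and CCACG with any 9 bases between them, on both strands in the 250 bases before the start, was found in 8 of 21 members with a promoter in the table (38.1%), against 0.122% of 27025 promoters and 0.147% of tested genes' promoters. It holds a CCAAT box within it. As in the cell cycle list, the shares follow from which genes the list holds and use no difference between the groups. Whether the element had a part in the differences was not tested. The windows of 30 bases around the first match are shown for these 8 members because the letters between the element's ends differ among them; capitals mark the match, and all are RefSeq sequences of GRCm38.p6 on the strand of the gene, 5′ to 3′.
Hspa5: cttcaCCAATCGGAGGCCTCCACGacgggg
Hsp90b1: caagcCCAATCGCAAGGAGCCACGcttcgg
Calr: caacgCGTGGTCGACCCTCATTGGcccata
Pdia6: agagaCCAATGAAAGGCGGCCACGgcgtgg
Creld2: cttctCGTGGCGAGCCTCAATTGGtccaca
Dnajc3: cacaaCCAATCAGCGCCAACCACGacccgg
Canx: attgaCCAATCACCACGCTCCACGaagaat
Syvn1: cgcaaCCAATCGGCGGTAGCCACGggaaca
In Calr and Creld2 the first match is on the opposite strand. The Hspa5 window lies at chr2:34772020-34772049 and the Creld2 window at chr15:88819515-88819544. These 8 genes differed by 0.48 (Hspa5), 0.35 (Hsp90b1), 0.36 (Calr), 0.42 (Pdia6), 0.69 (Creld2), 0.25 (Dnajc3), 0.20 (Canx) and 0.18 (Syvn1). Pdia4 and Sdf2l1, at 0.64 and 0.77, have no exact match in their window.

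Clock genes and their outputs were mostly lower in 5-ASA. In the circadian clock, CLOCK or NPAS2 with ARNTL drive genes through the E-box, among them Per, Cry, Nr1d and the factors Dbp and Tef, and the products feed back on the loop. Of 16 tested members 13 were lower and 3 higher, with a median of -0.54. At an unadjusted p under 0.05, 9 were lower and 1 higher (62.5%, against 11.5% of all genes). The hour at which each mouse was killed is not given in the sources used here, and its part in these values was not tested.

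Among the outputs, Usp2, a deubiquitinase, was at 0.81, 1.11, 1.76 and 1.51 in Sham 1 to 4 and -0.30, 0.19 and 0.72 (lowest, median, highest) in 5-ASA. Tef, a transcription factor, was at 4.11, 4.69, 4.89 and 4.44 in Sham and 2.52, 3.59 and 4.06 in 5-ASA. In both genes every 5-ASA mouse was below every Sham mouse, with differences of -1.07 (SE 0.24) and -1.12 (SE 0.31, limma adjusted p = 0.319 for each). Dbp, a factor related to Tef, differed by -1.48 (SE 0.45), with 1 Sham mouse at 2.75 within the 5-ASA range of 0.80 to 3.13. Among the repressors of the loop, Nr1d2 differed by -0.65 (SE 0.21) without overlap, Per2 by -0.88 (SE 0.30), Per1 by -0.69 (SE 0.29) and Cry2 by -0.55 (SE 0.21). Cry1 was at -0.03 (SE 0.37). On the activating side Npas2 was higher by 0.49 (SE 0.20) and Arntl by 0.35 (SE 0.28), as was Nfil3 by 0.41 (SE 0.26), a repressor that opposes Dbp and Tef.

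The clock scores of Sham 1 to 4 were 0.35, 0.12, 0.47 and 0.13, and those of 5-ASA 1 to 6 were -0.54, -0.48, -0.07, 0.18, 0.05 and -0.31. As in the cell cycle list, 5-ASA 4 lay among the Sham mice. The list median was -0.78 on slide 1, -0.36 on slide 2 and -0.41 row-adjusted. It was -0.26 for Control minus Sham and -0.23 for 5-ASA minus Control. The E-box CACGTG, which reads the same on both strands, occurred in the 250 bases before the start of 3 of 13 members with a promoter in the table (23.1%), against 6.05% of all promoters and 8.06% of those of tested genes. The D-box TTATGTAA, searched on both strands, occurred in 0 of 13, against 0.862% and 0.57%. Both shares follow from which genes the list holds and use no difference between 5-ASA and Sham. The E-box windows are shown for the member without overlap, Tef, and the feedback genes Per1 and Cry1, with the E-box in capitals (RefSeq, GRCm38.p6, strand of the gene, 5′ to 3′).
Tef: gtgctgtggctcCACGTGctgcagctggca
Per1: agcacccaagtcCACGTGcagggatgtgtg
Cry1: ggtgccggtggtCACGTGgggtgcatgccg
Their differences were -1.12, -0.69 and -0.03.

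**Figure D5:**
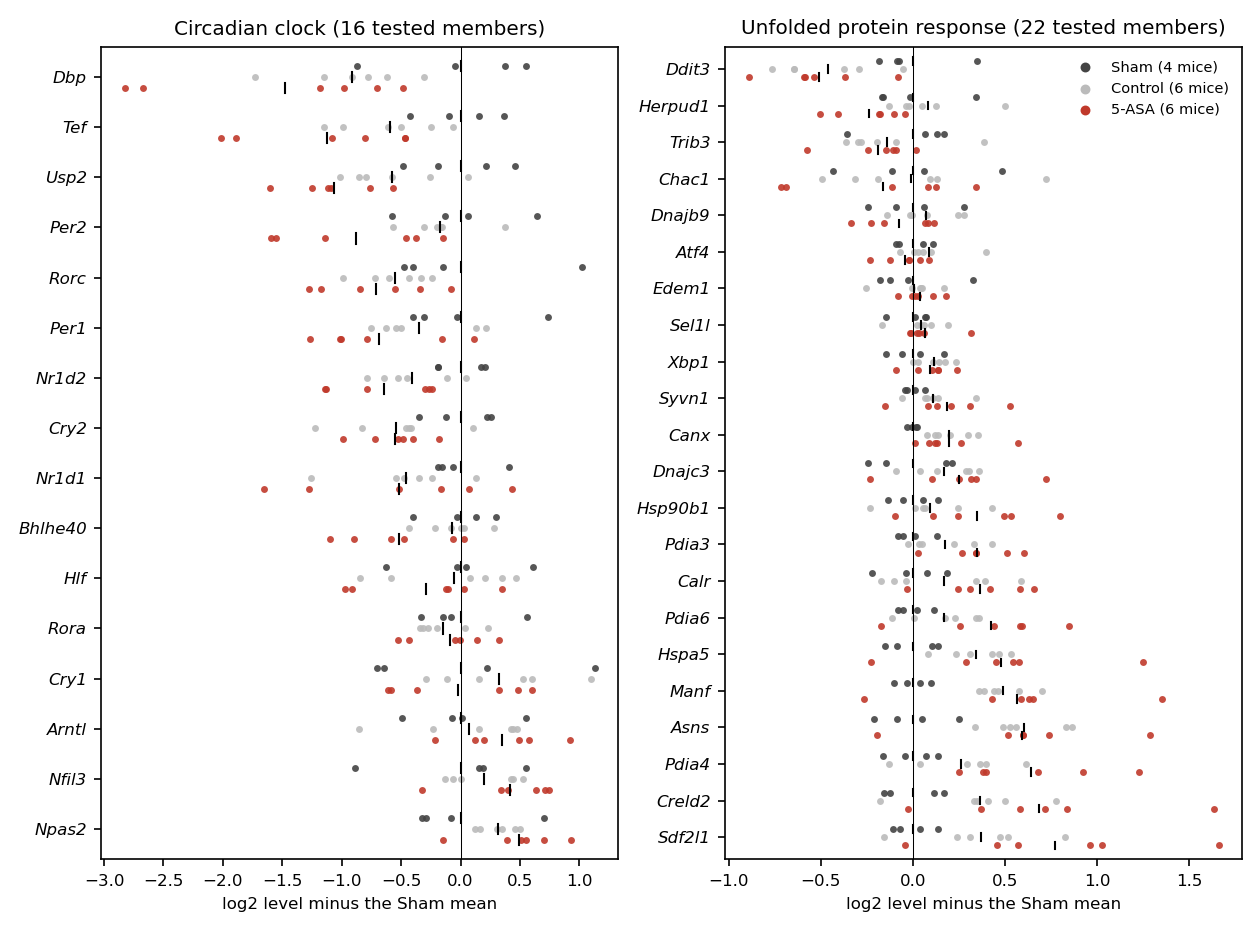
Levels of the 16 tested clock genes and 22 tested genes of the unfolded protein response, in log2 minus the Sham mean, by mouse (dark Sham, light Control, red 5-ASA; ticks are group means). Usp2, Tef and Nr1d2 have every 5-ASA mouse below Sham, and Pdia4 has every 5-ASA mouse above.

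By their score, B cell genes were lower in 5-ASA than in 3 of the 4 Sham mice. Plasma cell genes were not: 5 of 9 tested were higher, with a median of 0.09. All 14 tested B cell genes were below Sham on average, with a median of -1.85. An unadjusted p under 0.05 was found in 11 (78.6%, against 11.5% of all genes). The groups separated in 0 of the 14, against 1.56% of all genes. Spib, a transcription factor of B cells, was at -0.01, 2.64, 1.52 and 1.83 in Sham 1 to 4 and -0.74, -0.27 and 0.14 (lowest, median, highest) in 5-ASA, a difference of -1.76 (SE 0.48, limma adjusted p = 0.319). Cr2, a complement receptor of B cells and follicular dendritic cells, was at -3.89 in Sham 1 and 1.17 to 2.64 in the other Sham mice, against -3.44 to -1.82 in 5-ASA (-3.28, SE 1.14). Sham 1 was thus within the 5-ASA range in Spib and below it in Cr2. Cd37, a membrane protein of mature B cells, differed by -1.56 (SE 0.50). The B cell score was -1.35 in Sham 1, 1.23 to 2.32 in Sham 2 to 4, and -1.15 to -0.38 in 5-ASA. The B cell median was -0.877 for Control minus Sham and -0.902 for 5-ASA minus Control. Ms4a1, which encodes the B cell surface protein CD20, was well above background on 3 of 4 Sham arrays and on 4 of 6 5-ASA arrays, and was not tested. Whether the samples differed in the lymphoid follicles they held was not tested.

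Other immune lists had the same Sham mouse apart. All 18 tested T cell and cytotoxic genes were lower, with a median of -0.53, or -0.06 on slide 1, -0.88 on slide 2 and -0.82 without Sham 1. At an unadjusted p under 0.05 there was 1 (5.56%, against 11.5% of all genes). Thy1, a surface protein also found on neurons and fibroblasts, was the member without overlap (5.56%, against 1.56% of all genes). It differed by -0.39 (SE 0.14, row-adjusted -0.04). The adhesion molecule Cd2 was at -1.06 (SE 0.50), and the T cell receptor component Cd3e was at -0.04 (SE 0.18). Cd4 was at -0.06 (SE 0.21). The T cell median was -0.295 for Control minus Sham and -0.197 for 5-ASA minus Control. All 8 tested MHC class II genes were lower, with a median of -0.53, or -1.02 without Sham 1 and -0.34 without Sham 2. At an unadjusted p under 0.05 there were 2 (25%, against 11.5% of all genes). The largest differences were in H2-Oa (-2.22, SE 0.81) and H2-Ob (-2.04, SE 0.77), which modulate peptide loading in B cells. The class II median was -0.358 for Control minus Sham and -0.175 for 5-ASA minus Control. All 5 tested genes of the phagocyte NADPH oxidase, which makes superoxide, were lower, with a median of -0.995, or -1.54 without Sham 1. At an unadjusted p under 0.05 there were 2 (40%, against 11.5% of all genes). The GTPase Rac2 was at -1.16 (SE 0.52). Ncf1, a cytosolic subunit, was at -2.97, -0.60, -1.11 and -1.15 in Sham 1 to 4 and -2.74, -2.51 and -2.14 in 5-ASA (-1.04, SE 0.47). Cybb, the catalytic subunit, was well above background on 4 Sham and 5 5-ASA arrays and was not tested. The oxidase median was -0.46 for Control minus Sham and -0.535 for 5-ASA minus Control.

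The series title speaks of neutrophil activation, and the few neutrophil genes that could be tested had a median near 0. Only 9 of 26 such genes on the array passed the filter, 4 higher and 5 lower, with a median of -0.01. The alarmin subunit S100a9 was at -3.68, 0.17, -2.80 and -2.72 in Sham 1 to 4 and -3.54, -2.07 and -1.27 (lowest, median, highest) in 5-ASA, a difference of -0.02 (SE 1.01). The values ran from 1.06 on slide 2 to -1.88 row-adjusted, so the sign is not settled, and Sham 2 lay far above the other Sham mice. S100a8, its partner, was well above background on 4 Sham and 5 5-ASA arrays, and the granule enzyme Mpo on 4 and 4. Il1b, a cytokine of the inflammasome, differed by 0.53 (SE 0.66, row-adjusted -0.62) and the iron-binding Lcn2 by -0.15 (SE 0.36, 0.26 on slide 2, row-adjusted -1.33). Of the chemokine list, 7 of 20 were tested, and the monocyte attractant Ccl8 had the smallest p (0.96, SE 0.43).

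Among antimicrobial and acute phase genes, 11 of 18 were higher, with a median of 0.12. At an unadjusted p under 0.05 there were 3 (16.7%, against 11.5% of all genes), all higher. These 3 were picked out after their values were seen. Pla2g2a, a secreted phospholipase that kills bacteria and is known as a modifier of tumour number in Min mice, was at -1.88, -1.22, -0.41 and -1.59 in Sham 1 to 4. In 5-ASA its lowest level was -0.50, its median 1.21 and its highest 1.75, so that 5 of 6 mice were above all Sham mice. It differed by 2.29 (SE 0.54, limma adjusted p = 0.319), with 2.66 and 1.93 on the slides and 1.84 row-adjusted, and Control minus Sham was at 1.61. Saa3, an acute phase protein, differed by 2.10 (SE 0.69), against 2.77 for Control minus Sham, and S100a11 by 0.58 (SE 0.17). Reg3g, a lectin that kills Gram-positive bacteria, spread from -2.41 to 5.75 in 5-ASA and differed by 2.38 (SE 1.52). The list median was 0.54 on slide 1, -0.12 on slide 2 and -0.43 row-adjusted. It was 0.429 for Control minus Sham and -0.224 for 5-ASA minus Control.

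Genes that handle drugs were lower on balance, with 17 of 23 lower and a median of -0.23. At an unadjusted p under 0.05, 5 were lower (21.7%, against 11.5% of all genes). The median was -0.10 without Sham 1. It was 0.001 for Control minus Sham and -0.134 for 5-ASA minus Control. Abcb1a and Abcb1b encode P-glycoprotein, which pumps compounds out of the epithelium. Abcb1a was at 4.62, 4.54, 4.83 and 4.61 in Sham 1 to 4 and 2.93, 3.96 and 4.61 (lowest, median, highest) in 5-ASA, a difference of -0.79 (SE 0.25). Abcb1b differed by -0.67 (SE 0.18) and the carboxylesterase Ces2a by -0.99 (SE 0.34). In Abcb1a the highest 5-ASA mouse reached the Sham range, and the other values spread below it. Nat2, the mouse enzyme that acetylates 5-ASA, differed by -0.04 (SE 0.11), with 0.08 on slide 1, and the multidrug transporter Abcg2 by 0.06 (SE 0.21). Nat1 was well above background on 1 Sham array and Cyp1a1 on 0 arrays.

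Of the remaining lists past the same distance, type I interferon genes had 24 of 25 lower and a median of -0.30. At an unadjusted p under 0.05 there were 12% of these genes, against 11.5% of all genes. The share was 7.14% for complement genes and 0% for adipocyte and for erythroid genes. Ifih1, a sensor of viral RNA, differed by -0.29 (SE 0.10) and the antiviral gene Rsad2 by -0.89 (SE 0.35). The interferon median was -0.75 on slide 1, -0.12 on slide 2, -0.15 without Sham 1 and -0.45 without 5-ASA 6. For Control minus Sham it was -0.305, and for 5-ASA minus Control 0.002. Complement genes had 12 of 14 lower and a median of -0.23, which was -0.05 row-adjusted, -0.41 without Sham 1, -0.12 without Sham 3 and -0.12 without 5-ASA 1, with C3, the central complement protein, at -0.67 (SE 0.21, row-adjusted -0.15) and properdin, Cfp, at -0.42 (SE 0.24). Adipocyte genes were all lower (10 of 10, median -0.37, row-adjusted -0.01). Their median was -0.23 without Sham 1, -0.22 without Sham 3, -0.81 without Sham 4 and -0.18 without 5-ASA 6, and the score was -1.41 in Sham 4 and -1.76 in 5-ASA 6 against -0.36 to 0.98 in the other mice of both groups. The lipid droplet gene Cidec was at -0.72 (SE 0.60) and the fatty acid carrier Fabp4 at -0.55 (SE 0.35). The adipocyte median was -0.163 for Control minus Sham and -0.017 for 5-ASA minus Control. The complement median was -0.054 and -0.186 in the same 2 comparisons. Erythroid genes had a median of -0.52, which was 0.02 on slide 2, 0.68 row-adjusted and -0.34 without Sham 1, and Hbb-bt, a beta globin, was at -0.69 (SE 0.57) or 0.65 row-adjusted, while the red cell enzyme Bpgm was at 0.18 (SE 0.11). The erythroid median was 0.79 for Control minus Sham and -1.31 for 5-ASA minus Control. Just inside that distance, the mast cell list had 4 tested genes, all higher, with a median of 0.20 (0.33 without Sham 4, 0.36 without 5-ASA 2) and the protease Mcpt2 at 1.71 (SE 0.73).

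Several lists lay near the median of all genes. Intestinal stem cell and Wnt target genes had 10 higher and 11 lower, with a median of -0.005, and the stem cell receptor Lgr5 was at -0.03 (SE 0.18). Apc itself differed by -0.12 (SE 0.11, row-adjusted 0.01), and its probe does not show the Min mutation. Goblet cell (0.05), absorptive colonocyte (-0.08), ribosomal protein (-0.02) and oxidative phosphorylation genes (0.07) had small medians. Ptgs2, the inducible cyclooxygenase, was at 0.01 (SE 0.33) and Pparg, a nuclear receptor that 5-ASA is reported to act through, at -0.11 (SE 0.18). Smooth muscle genes were at 0.08 against Sham, where Control minus Sham was -0.31 and 5-ASA minus Control 0.38, and at 0.62 row-adjusted. Their median was -0.22 on slide 1 and 0.39 on slide 2, and ran from -0.11 to 0.34 with single mice left out. Among Sham mice, Sham 1 had the highest score of smooth muscle (0.895) and of enteric neuron and glia genes (0.70).

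The filter on dim probes decided how many genes were called. With every probe kept, limma called 3275 of 33517 genes, 3151 of them higher in 5-ASA. Of the calls, 2970 (90.7%) were genes not well above background on any of the 16 arrays, whose median difference was 0.84. The scanner software's additive error was 8.12 to 11.2 on 5-ASA arrays and 4.88 to 5.72 on Sham arrays. Within Control it was 10.61 and 8.75 on Control 3 and 6, in the second array row. On Control 1, 2, 4 and 5, in the first row, it was 4.05 to 4.55. Among the genes tested here the median difference was 0.003 in the fifth of lowest level and 0.007 in the fifth of highest.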

How the data were processed

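Colon RNA of 16 mice was measured on 1-colour Agilent arrays. Per the file headers, Feature Extraction 10.10.1.1 had subtracted background from spot intensity in the deposited files and detrended it, with flags of 0 or 1 for outlying spots and signal well above background. The authors' value table, whose scale is unstated, correlated with log2 intensity minus the 75th percentile centred on each probe's Sham median at r = 1 on each array; its column medians run from -0.188 to 0.224, and it served as an alternative. From 62976 spots in 384 spot rows, control spots and the outer 12 spot rows at both ends were left out, and outlying spots were dropped. Log2 intensity minus each array's 75th percentile (non-control spots) was averaged per probe. Probes well above background on all 16 arrays were kept, with 1 probe per gene (highest mean), which left 18970 genes. Names came from RefSeq accessions (GRCm38.p6) for 27713 of 55681 probes, and 27968 kept the name in the files.

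The 3 groups were fitted in 1 model without covariates in limma 3.58.1 (R 4.3.3), with Benjamini-Hochberg adjustment. Nothing says whether the mice were housed or treated separately, so p-values measure the spread between these samples, and the number of arrays limits the precision. The fit was also run on simulated data with independent normal errors and no effect of array row. Such data cannot check what the row, the additive error or shared variation between genes did here. By rule, named were the 10 genes per direction of smallest p without overlap and with an official symbol, clone and predicted-gene names left out. To these came 2 members of each list whose median lay over 0.2 from that of all genes, and 15 genes chosen for the topic. Further list members named in the text fall outside these rules and were picked after their values were seen. Among them, H1f5, Sdf2l1, Cr2, Dbp, Ces2a and Mcpt2 have the highest or lowest difference of their list. Members and lists were chosen with earlier results of these data known. The 26 alternatives covered background correction, scaling, filters, blocks, weights and leaving out single mice.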

Additional observations from a re-analysis of the deposited data

Results flagged for a closer look

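In groups of 4 or 6 mice, the highest or lowest mouse was compared with its nearest neighbour by Dixon's ratio, over 53 named genes and 49 list scores in Sham and in 5-ASA. Of 204 such groups 7 passed, a smaller share than the 1 in 20 or so that chance gives. The B cell score of Sham 1 (-1.35) was not among those that passed. Sham 1 stood far below Sham 2 to 4 in the scores of the phagocyte NADPH oxidase (-0.87, nearest Sham mouse 0.62), T cell and cytotoxic genes (-0.87, nearest 0.55) and MHC class II (-1.19, nearest 0.94). It was above them in the Apc and destruction complex score (0.19, nearest 0.02). Sham 3 was high in the score of bile acid and fluid signalling (0.001, nearest -0.07). In the 5-ASA group, Rsad2 was low in 5-ASA 1 (-2.06, nearest -1.23), and the score of NF-kB and toll-like receptor genes was high in 5-ASA 6 (0.081, nearest -0.06).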

How the results depend on the processing

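Against 0 genes called, limma called 1 with normexp background (Osgin1), 1 with quantile scaling (Osgin1), 2 with slide as a block, 2 with array weights and 3 with all spot rows, the last adding 1 intergenic interval. It called 0 under median scaling, the filter of 4 of 16 arrays, the 10 arrays alone, either slide, the row covariate, the trended variance, the mean of probes and the deposited table. Keeping dim probes gave 3275 calls, 7721 genes at an unadjusted p under 0.05 and 6055 without overlap. The count at an unadjusted p under 0.05 was 1296 within slide 2 and 407 with the row covariate. Leaving out 1 mouse at a time gave 0 to 13 calls, 1437 to 3288 genes at that p and 325 to 1378 without overlap. The 13 calls came without 5-ASA 4, the 1437 without Sham 3. A fit without Sham 1 and 5-ASA 4 together was also run; these mice had been picked by their measured values after seeing the data, so its counts are not reported.

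List medians that moved by more than the spread between mice were, on slide 1, enteric neuron and glia (-0.38), fibroblast and matrix (-0.11), endothelial (-0.23), antimicrobial (0.54), erythroid (-0.99), type I interferon (-0.75), Hox (-0.065) and oxidative phosphorylation (0.17). On slide 2 they were erythroid (0.018), cholesterol synthesis (-0.17), Hox (0.21) and reference genes (-0.05). With the row covariate they were enteroendocrine (0.035), tuft cell (-0.31), smooth muscle (0.62), enteric neuron and glia (0.35), fibroblast and matrix (0.25), antimicrobial (-0.43), erythroid (0.68), prostaglandin (0.10), cholesterol synthesis (-0.37) and Hox (0.22). The oxidase list ranged from -1.54 (without Sham 1) to -0.684 (without Sham 2) with single mice left out.

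Among named genes the sign turned for Ptgs2 (-0.007 under median scaling, -0.01 on slide 1, -0.039 with the replicate block), Nat2 (0.077) and Lgr5 (0.06) on slide 1, and S100a9 (1.06), Lcn2 (0.26) and Pparg (0.035) on slide 2. It also turned for Hbb-bt (0.65), Il1b (-0.62) and Apc (0.014) with the row covariate and Pparg (0.009) with array weights. With single mice left out, S100a9 ranged from -0.49 to 0.79, Ptgs2 from -0.21 to 0.16, Pparg from -0.27 to 0.08, Lgr5 from -0.12 to 0.14 and Nat2 from -0.11 to 0.037. The causes were not tested.

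With the replicate number as a block, limma called 0 genes, with 2402 at an unadjusted p under 0.05. Mice of the same number correlated in their deviations with r of 0.21, 0.19, -0.24 and 0.21 for numbers 1 to 4, so the numbers are not taken to pair the mice.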
